A study of Mus musculus with 6 samples.

Results

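Tsc22d3 is the gene of the glucocorticoid-induced leucine zipper protein, GILZ. It was studied as 1 row of a table of 8078 gene entries measured in 6 libraries of sorted horizontal basal cells, the reserve stem cells of the mouse olfactory epithelium. The gene was chosen by its FPKM values in these 6 libraries, which differ between the groups, so its levels are a description and carry no test.

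All cells came from 12-week-old B6;KRT5-CreER;Ai9 fl(Stop)TdTomato mice. In these mice a tamoxifen-activated Cre under the keratin 5 promoter removes a stop cassette, so that cells using the promoter, and their descendants, glow red. Tamoxifen was given 2 weeks before the sort, and cells of dissociated olfactory epithelium were sorted on TdTomato. The uninjured group held 3 libraries. The injured group held 3 libraries taken 18 h after the mice had breathed methyl bromide, a gas that destroys most of the olfactory epithelium, at 180 ppm for 8 h. Each library pooled several animals per the labels, so the spread between libraries is that between pools. The sort follows keratin 5 use, so keratin 5 cells of other types in the tissue would be collected too. The table's values are taken as FPKM, a read density per transcript length and library size. Values of 3 libraries are given in the order of replicates 1 to 3.

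Glucocorticoids enter cells and bind the glucocorticoid receptor, which then moves to the nucleus and switches on a set of genes, of which Tsc22d3 is among the most widely used reporters. Its protein belongs to the TSC22 family of leucine zipper proteins, and it binds and restrains NF-kB, AP-1 and Ras-Raf signalling. Transcription of the gene also responds to FoxO factors, which are active when growth factor signalling is low, and to cyclic AMP.

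The gene lies on the X chromosome. RefSeq lists 3 starts for it on build GRCm38.p6, all on the minus strand, and the deposited table gives a single value that does not separate their transcripts. The windows of 300 bases around these starts, 250 before and 50 after, are shown because they are the stretches a change in start use would involve. Capitals mark a match to 1 of 5 motifs searched on both strands. The motifs were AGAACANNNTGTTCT for the paired glucocorticoid receptor element, TGTTCT for its single arm, GTAAACA for FoxO factors, TGACG for cyclic AMP response and CACGTG for clock factors. A match to the paired element contains matches to the single arm.
Proximal start, chrX:140542619-140542918: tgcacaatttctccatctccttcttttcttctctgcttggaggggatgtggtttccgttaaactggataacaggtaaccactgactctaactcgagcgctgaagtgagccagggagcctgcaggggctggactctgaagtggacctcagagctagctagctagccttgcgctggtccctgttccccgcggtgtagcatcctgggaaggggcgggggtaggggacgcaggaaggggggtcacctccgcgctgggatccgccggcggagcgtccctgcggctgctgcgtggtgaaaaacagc
Middle start, chrX:140548522-140548821: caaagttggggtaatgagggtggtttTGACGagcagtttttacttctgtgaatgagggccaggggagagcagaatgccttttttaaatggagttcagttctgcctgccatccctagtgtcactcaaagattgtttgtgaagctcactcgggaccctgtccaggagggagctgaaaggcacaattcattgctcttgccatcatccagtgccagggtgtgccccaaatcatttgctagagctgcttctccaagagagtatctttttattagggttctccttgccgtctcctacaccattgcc
Distal start, chrX:140600473-140600772: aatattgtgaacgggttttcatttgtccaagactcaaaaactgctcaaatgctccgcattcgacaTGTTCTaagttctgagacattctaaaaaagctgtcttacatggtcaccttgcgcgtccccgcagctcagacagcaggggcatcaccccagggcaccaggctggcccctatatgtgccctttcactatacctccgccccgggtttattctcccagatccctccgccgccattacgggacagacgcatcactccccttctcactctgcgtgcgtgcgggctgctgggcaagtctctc
The window of the proximal start held none of the 5 motifs. That of the middle start, 5903 bases further upstream, held TGACG 224 bases before the start, a motif found in 20.8% of 32851 such RefSeq windows. That of the distal start, 57854 bases upstream of the proximal one, held TGTTCT 185 bases before the start, found in 19% of windows. The paired receptor element was in 3 windows of all, GTAAACA in 3.65% and CACGTG in 7.15%. These are letter matches only and say nothing about binding.

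Tsc22d3 stood at 51.9, 37.6 and 47.7 FPKM in the uninjured group. It stood at 10.3, 14.2 and 12.7 FPKM in the injured group. All 3 injured libraries were below all 3 uninjured ones, and the lowest uninjured value was 2.64 times the highest injured one. The means were 45.8 ± 7.34 and 12.4 ± 1.99 FPKM (SD, n = 3 each), a ratio of 3.69. On the log2(FPKM + 1) scale, used for all differences below as injured minus uninjured, the difference was -1.80. Within each group the order of the libraries carries little weight, since the highest exceeded the lowest by 1.38 times in both. A lower value in a pool of cells can reflect less RNA per cell or fewer cells that carry it, which cannot be told apart here.

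In uninjured cells the gene was among the more abundant ones. It ranked 408th, 715th and 539th from the top of 8078 entries in the uninjured group. It ranked 3704th, 2368th and 3106th in the injured group. Set against the median gene of the same library, it was 6.74, 4.77 and 5.96 times as high in uninjured libraries and 1.13, 1.69 and 1.36 times as high in the injured group. These ranks and ratios do not depend on how the libraries were scaled to each other. Of 7987 genes tested, those with a mean of at least 1 FPKM, 53 had a more negative difference. Just below Tsc22d3 in that order were Gm13629 (-1.81) and Dpys (-1.83), and just above it were Rpph1 (-1.79) and Spcs1 (-1.76). The injured and uninjured libraries of Rpph1 and Spcs1 overlapped.

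**Figure D1:**
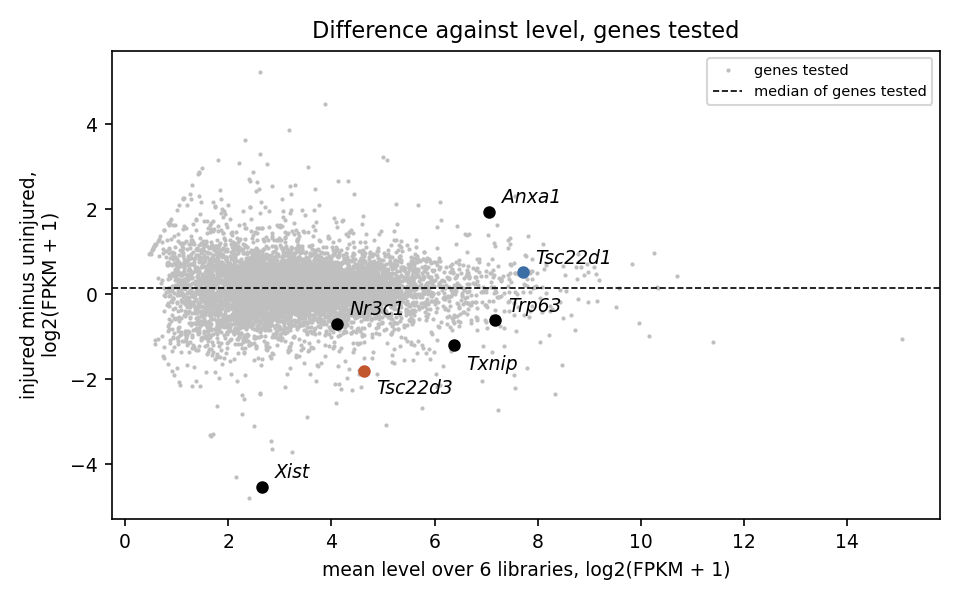
Each grey point is 1 of 7987 genes tested, with its mean level over 6 libraries on the x axis, in log2(FPKM + 1), and the injured minus uninjured difference on the y axis. Tsc22d3, at -1.80, sits below most genes of its level, and the dashed line is the median of all genes tested, 0.16.

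The spread of Tsc22d3 between pools was similar in both groups. On the log2 scale it had an SD of 0.24 in the uninjured group and 0.22 in the injured group. For the 500 genes nearest in mean level the medians of that SD were 0.24 without injury and 0.38 with it, and 22.4% of them had a smaller injured SD than Tsc22d3. Injured replicate 2 stood apart in the table as a whole. Its correlation across genes was 0.73 and 0.75 with the other injured libraries, which reached 0.85 with each other. With uninjured replicates 1 to 3 it correlated more highly, at 0.80, 0.83 and 0.81. Injured replicates 1 and 3 correlated with the uninjured libraries at 0.788 to 0.825, below their value with each other. The Tsc22d3 value of injured replicate 2, 14.2 FPKM, was the highest of the injured group. Without that library the difference was -1.90.

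Across the whole table, limma called 0 genes higher (0% of those tested) and 1 lower (0.0125%) at an adjusted p of 0.05, and without injured replicate 2 it called 278 and 92. At an unadjusted p of 0.05 it called 571 genes higher (7.15%) and 323 lower (4.04%). Every injured library was above every uninjured one for 12% of genes tested, and below for 6.75%. Without injured replicate 2 these shares were 29.4% and 14.5%. The median difference of all genes tested was 0.16, which upper-quartile scaling took to -0.01 and quantile normalization to 0.01, so list medians are to be read against that shift. Summed FPKM ran from 164265 to 231755 per library, and read depth is unknown.

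None of the other 3 members of the TSC22 family was lower in every injured library. Tsc22d1, the founding member and a transforming growth factor beta target, was the most abundant of the 4 in every library. It stood at 180, 158 and 187 FPKM in the uninjured group and at 298, 138 and 386 in the injured group, and the groups overlapped (difference 0.52, limma adjusted p = 0.638). Tsc22d4, a family member linked to liver lipid metabolism, stood at 2.98, 5.11 and 4.28 FPKM and then at 6.76, 4.36 and 5.56, again with overlap (difference 0.36, limma adjusted p = 0.675). Tsc22d2 stood at 7.56, 3.06 and 8.55 FPKM and then at 3.47, 4.89 and 12.8 (difference 0.04, limma adjusted p = 0.982). The difference of Tsc22d2 was negative under upper-quartile scaling and quantile normalization. None of these 3 genes passed limma's threshold, nor an unadjusted p of 0.05.

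The ratios of family members to Tsc22d3 differed between the groups, a comparison inside each library that needs no scaling between libraries. Tsc22d1 was 3.47, 4.19 and 3.93 times as high as Tsc22d3 in the uninjured group. It was 28.9, 9.68 and 30.4 times as high in the injured group. Tsc22d3 was above Tsc22d2 by 5.59 to 12.3 times in uninjured libraries. In injured libraries the same ratio was 0.99 to 2.96, and in injured replicate 3 the pair was nearly level. Both FPKM values are per length, so these are ratios of levels. They hold the Tsc22d3 row, which was chosen by its values, so they are no separate evidence and are given without a test. The ratios of Txnip, Foxo1, Sgk1 and Per1 to Tsc22d3 separated the groups too, so the separation is not particular to the family.

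**Figure D2:**
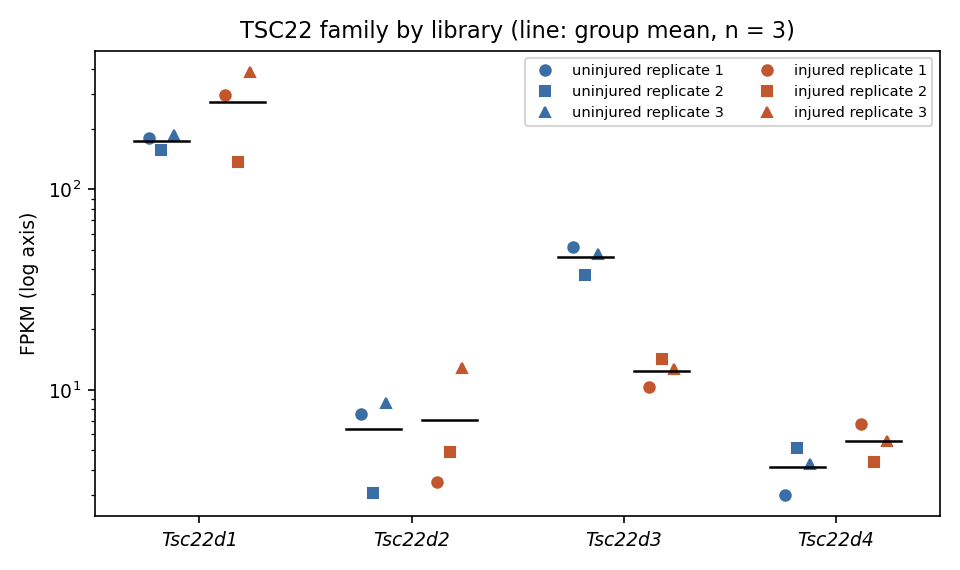
FPKM of the 4 TSC22 family genes on a log axis, 1 symbol per library (blue uninjured, orange injured) and a line at each group mean, n = 3. Only for Tsc22d3 do the groups separate, with 37.6 to 51.9 FPKM against 10.3 to 14.2.

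TSC22 proteins form complexes with the pseudokinases Nrbp1 and Nrbp2 and with WNK kinases, which control ion transport and cell volume. Of 6 such genes tested, limma called 0 at an adjusted p of 0.05 and 0 by an unadjusted p under 0.05. Nrbp2 stood at 64.2, 84.0 and 80.1 FPKM in the uninjured group and at 53.8, 57.7 and 40.9 in the injured group, below all uninjured values (difference -0.58, limma adjusted p = 0.478). Stk39, a kinase that WNK kinases activate, stood at 9.93, 10.5 and 11.8 FPKM and then at 15.1, 12.7 and 17.9, above all uninjured values (difference 0.45, limma adjusted p = 0.52). Wnk1 itself overlapped between the groups, at 32.7 ± 6.09 and 29.8 ± 4.58 FPKM.

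Receptors for glucocorticoids had lower means in the injured libraries, though neither passed the test. Nr3c1, the glucocorticoid receptor, stood at 26.7, 19.3 and 17.8 FPKM in the uninjured group and at 10.6, 8.91 and 20.7 in the injured group. Injured replicate 3 lay inside the uninjured range (difference -0.70, limma adjusted p = 0.478). Nr3c2, the mineralocorticoid receptor, which also binds glucocorticoids, stood at 15.3, 7.72 and 7.26 FPKM and then at 3.54, 4.56 and 4.79. Its groups did not overlap, with means of 10.1 ± 4.54 and 4.30 ± 0.662 FPKM (limma adjusted p = 0.337).

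Of 17 receptor and cofactor genes listed, 13 were tested, and limma called 0 of them, with 2 higher and 1 lower by an unadjusted p under 0.05. Their median difference was 0.12, beside 0.16 for all genes tested. Stip1, the cochaperone that links Hsp70 to Hsp90, stood at 12.5, 14.8 and 13.7 FPKM and then at 31.4, 17.0 and 32.5, above all uninjured values (difference 0.88, limma adjusted p = 0.36). Without injured replicate 2 Stip1 rose (1.17, limma adjusted p = 0.0324). Hsp90ab1, an Hsp90 chaperone, stood at 420 ± 46.8 and 618 ± 175 FPKM, and the Hsp90 partner Fkbp4 at 65.5 ± 11.7 and 90.2 ± 30.1, both with overlap. Ptges3, the Hsp90 cochaperone p23, chosen after its values were seen, stood at 33.4, 32.0 and 35.8 FPKM and then at 75.3, 17.8 and 60.5, with injured replicate 2 below all other libraries. Smarca4, a chromatin remodelling ATPase used by the receptor, stood at 13.3 ± 0.429 and 21.5 ± 4.46 FPKM without overlap (difference 0.64, limma adjusted p = 0.397). Of the genes for local steroid handling, Srd5a1, the steroid 5-alpha reductase, stood at 23.7, 23.7 and 25.0 FPKM and then at 15.8, 10.2 and 15.8, below all uninjured values (difference -0.78, limma adjusted p = 0.36). The 11-beta hydroxysteroid dehydrogenases and the receptor cochaperone Fkbp5 were not analysed here.

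Of 40 other genes listed that glucocorticoids are known to switch on, 27 were tested, 13 with a positive and 14 with a negative difference. Their median was -0.01, beside 0.16 for all genes, and it was 0.29 without injured replicate 2. Limma called 0 of them in either direction, with 1 higher and 3 lower by an unadjusted p under 0.05. All injured libraries were below the uninjured ones for 6 of the 27 (22.2%, beside 6.75% of genes tested) and above for 2 (7.41%, beside 12%). The 6 lower genes were Txnip, Klf15, Snai2, Bcl6, Rgs2 and Glul, and the 2 higher ones were Anxa1 and Lpin1. After upper-quartile scaling 7 were lower and 1 higher, beside 11.4% and 7.2% of genes tested. Without injured replicate 2 the counts were 6 lower and 8 higher, beside 14.5% and 29.4%.

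Txnip, an inhibitor of thioredoxin and of glucose uptake, was the lowest of them. It stood at 137, 110 and 127 FPKM in the uninjured group and at 53.4, 68.9 and 42.6 in the injured group, with a clear gap between the groups (difference -1.19, limma adjusted p = 0.2). Without injured replicate 2 Txnip fell (-1.36, limma adjusted p = 0.034). Klf15, a metabolic transcription factor, stood at 8.34, 8.36 and 9.48 FPKM and then at 6.14, 3.97 and 4.50 (difference -0.74, limma adjusted p = 0.375). The transcriptional repressors Snai2 and Bcl6 stood at 54.1 ± 4.83 and 32.9 ± 9.33 FPKM and at 48.3 ± 2.92 and 33.3 ± 9.48 (limma adjusted p = 0.392 and 0.492). Glul, glutamine synthetase, stood at 106 ± 14.9 and 77.2 ± 16.2 FPKM (limma adjusted p = 0.572).

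Anxa1 lay on the opposite side. It encodes annexin A1, which like GILZ carries anti-inflammatory actions of glucocorticoids. It stood at 78.0, 50.6 and 76.5 FPKM in the uninjured group and at 371, 100 and 473 in the injured group. All injured values were above the uninjured ones, and injured replicate 2 lay nearest to them (difference 1.94, limma adjusted p = 0.3). Without that library Anxa1 rose (2.63, limma adjusted p = 0.0093). Lpin1, a phosphatidate phosphatase, stood at 5.87 ± 0.695 and 9.18 ± 2.06 FPKM (difference 0.55, limma adjusted p = 0.48). Dusp1, a phosphatase of MAP kinases, overlapped widely, at 263, 188 and 179 FPKM and then at 268, 107 and 667. Per1 and Sgk1, which are among the standard early targets of the receptor and were chosen after their values were seen, also overlapped. Sgk1 stood at 95.3, 83.1 and 67.4 FPKM and then at 64.5, 45.5 and 93.0. Per1 stood at 24.4, 10.4 and 15.1 FPKM and then at 12.1, 8.00 and 25.1.

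**Figure D3:**
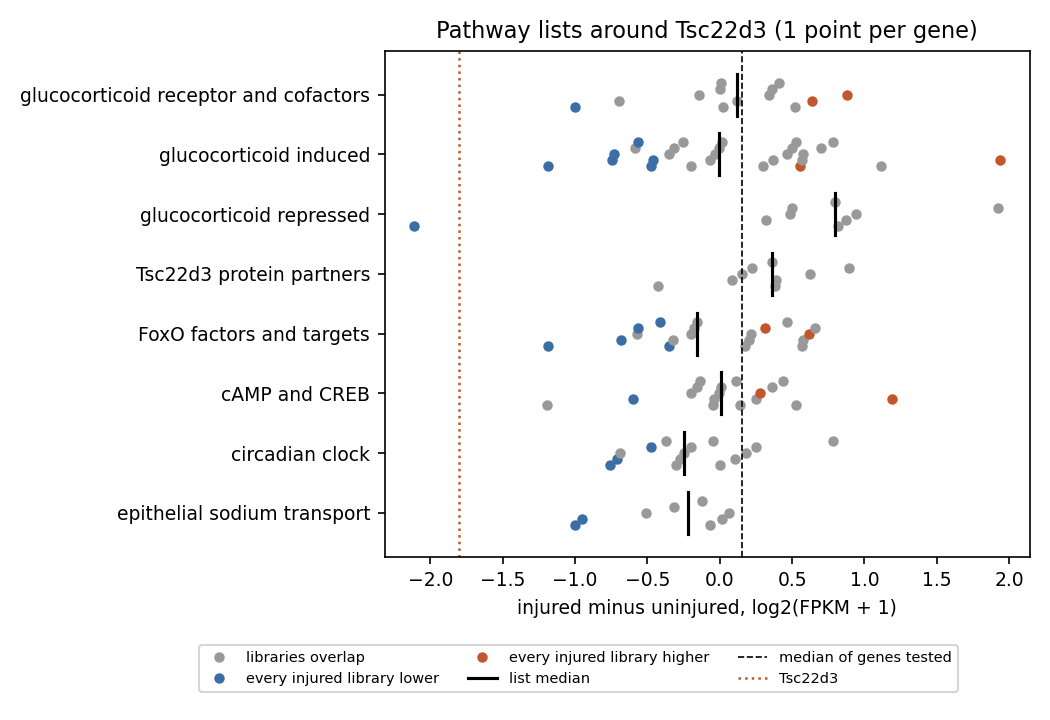
Injured minus uninjured difference on the log2(FPKM + 1) scale for the tested genes of 8 lists, 1 point per gene, coloured by whether every injured library lies below (blue) or above (orange) every uninjured one. Tsc22d3, the dotted line at -1.80, lies left of all listed genes except Ccl20 at -2.11.

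Genes that glucocorticoids are known to hold down gave 9 tested members of 18, with a median difference of 0.80. Limma called 0 of them, with 0 higher and 1 lower by an unadjusted p under 0.05. In 8 of the 9 the difference was positive, and in all of these the groups overlapped. Icam1, an adhesion molecule that binds leukocytes, stood at 15.9, 13.7 and 15.8 FPKM and then at 27.3, 8.21 and 30.3. The median deviation of the list from the uninjured mean was 1.55, -0.44 and 0.73 in the injured group, while that of Tsc22d3 was -2.04, -1.60 and -1.76. Ccl20, a chemokine of epithelia that NF-kB drives, was the exception in the list. It stood at 57.0, 25.9 and 25.9 FPKM in the uninjured group and at 9.02, 4.16 and 9.04 in the injured group, without overlap (difference -2.11, limma adjusted p = 0.133). Without injured replicate 2 Ccl20 fell (-1.79, limma adjusted p = 0.0449).

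Of 12 genes for proteins that GILZ binds or acts on, 9 were tested, with a median difference of 0.36 and no gene whose groups separated. Limma called 0, with 1 higher and 0 lower by an unadjusted p under 0.05. Fos, an AP-1 subunit, stood at 464, 243 and 276 FPKM and then at 259, 104 and 473. Mdm2, the ubiquitin ligase of p53, stood at 40.9 ± 4.28 and 46.8 ± 14.7 FPKM.

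Of 21 FoxO factors and targets listed, 19 were tested, 9 with a positive and 10 with a negative difference, and a median of -0.16, which was -0.04 without injured replicate 2. Limma called 0, with 0 higher and 2 lower by an unadjusted p under 0.05. All injured libraries were below the uninjured ones for 5 of 19 (26.3%, beside 6.75% of genes tested) and above for 2 (10.5%, beside 12%). Without injured replicate 2 the counts were 7 and 4, beside 14.5% and 29.4% of genes tested. Txnip and Bcl6 are on this list too. Foxo1, the factor itself, stood at 48.5, 45.9 and 46.2 FPKM in the uninjured group and at 24.1, 25.6 and 38.5 in the injured group, below all uninjured values (difference -0.68, limma adjusted p = 0.397). Bcl2l11, which encodes the death protein Bim, went the other way, at 3.68 ± 0.403 and 6.27 ± 1.48 FPKM without overlap (difference 0.62, limma adjusted p = 0.478). Klf6, an early response factor, overlapped at 92.5, 53.8 and 46.9 FPKM and then at 87.9, 40.6 and 260 (difference 0.66).

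Genes of cyclic AMP signalling gave 17 tested members of 18, with a median of 0.01. Limma called 0 of them, and 0 by an unadjusted p under 0.05. Pde4d, which breaks down cyclic AMP, was lower in all injured libraries at 3.94 ± 1.24 and 2.20 ± 0.275 FPKM (limma adjusted p = 0.576). Crtc2, a coactivator of CREB, and Areg, an EGF receptor ligand, were higher in all injured libraries (differences 0.28 and 1.19, limma adjusted p = 0.67 and 0.486). Prkar1a, the regulatory subunit of protein kinase A, stood at 55.1 ± 5.61 and 59.4 ± 1.72 FPKM, and Fosb at 53.5 ± 12.0 and 91.8 ± 85.1, both with overlap.

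Clock genes were examined because blood glucocorticoids follow a daily rhythm, and the labels give no hour of collection. Of 18 listed, 15 were tested, 10 of them with a negative difference, and the median was -0.24 and -0.03 without injured replicate 2. Limma called 0, with 0 higher and 1 lower by an unadjusted p under 0.05. Per2, a clock repressor with a known receptor element, stood at 14.3, 14.5 and 13.1 FPKM and then at 5.70, 9.86 and 8.43, below all uninjured values (difference -0.76, limma adjusted p = 0.365). The clock repressor Cry2 stood at 11.7 ± 2.25 and 7.22 ± 3.35 FPKM, and the output factor Hlf at 37.9 ± 1.09 and 27.6 ± 7.44, also without overlap. These 3 of 15 (20%, beside 6.75% of genes tested) were lower in every injured library, and 0 were higher (beside 12%). Without injured replicate 2 the counts were 4 lower and 2 higher, beside 14.5% and 29.4% of genes tested. The most abundant members overlapped between the groups: Nr1d1 stood at 98.6 ± 18.9 and 81.9 ± 26.6 FPKM and Bhlhe40 at 67.2 ± 11.4 and 92.0 ± 62.7.

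GILZ and Sgk1 both raise the activity of the epithelial sodium channel, so genes of sodium transport were listed as well. Of 8 tested members of 10, 2 (25%, beside 6.75% of genes tested) were lower in all injured libraries and 6 had a negative difference, with a median of -0.22. Limma called 0, with 0 higher and 2 lower by an unadjusted p under 0.05. Atp1b1, the beta subunit of the sodium pump, stood at 414, 499 and 345 FPKM and then at 221, 214 and 206, a tight injured group well below the uninjured one (difference -0.95, limma adjusted p = 0.362). Nr3c2, given above, was the other lower member.

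The genes most like Tsc22d3 over the 6 libraries were found by Pearson's r of log2(FPKM + 1) among 7855 single-symbol genes. The likeness is a description of 6 points that fall into 2 groups, so it is led by the difference between the groups. The 8 most alike had r between 0.981 and 0.995, and r of the deviations from each group's mean between 0.63 and 0.94. Picking the highest r over these same libraries favours high values of both, so the second range is no separate evidence of likeness. The 8 genes were Gpm6b, Gm13629, Diras2, Gnmt, Npr3, Gpm6a, Lbh and Gm12695. Of these, 7 stayed among the first 8 after upper-quartile scaling and 3 without injured replicate 2. Gpm6b, a membrane protein of the proteolipid family, led with r = 0.995. It stood at 62.8, 53.7 and 59.7 FPKM in the uninjured group and at 17.5, 25.6 and 20.6 in the injured group. The libraries stood in the same order as for Tsc22d3.

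Its relative Gpm6a stood at 258, 174 and 244 FPKM and then at 67.8, 94.2 and 99.5. Npr3, the clearance receptor for natriuretic peptides, stood at 9.38, 7.01 and 7.70 FPKM and then at 2.66, 2.62 and 2.87. Gnmt, a methyltransferase that uses S-adenosylmethionine, stood at 8.49, 7.75 and 7.35 FPKM and then at 2.50, 3.28 and 2.59. In each of these 3 genes a wide gap separated the groups. Diras2, a small GTPase, stood at 4.46 ± 0.506 and 1.70 ± 0.296 FPKM, and Lbh, a transcription cofactor, at 5.07 ± 0.228 and 3.08 ± 0.328. Gm12695 stood at 4.46 ± 0.925 and 1.32 ± 0.276 FPKM. Gm13629 was listed at the table's lowest value, 0.001, in all 3 injured libraries and at 3.22, 1.75 and 2.72 FPKM in uninjured ones. By distance between profiles, which also weighs the size of the difference, the nearest were Gm13629, Gpm6b, Dcdc2a and Cd36. Cd36, a fatty acid scavenger receptor, stood at 31.6, 32.4 and 32.6 FPKM and then at 9.93, 10.2 and 10.3, with hardly any spread inside either group. Dcdc2a, a doublecortin-domain protein, stood at 8.80 ± 1.33 and 2.37 ± 0.713 FPKM. For deviations from the group means, r was 0.17 for Cd36 and 0.66 for Dcdc2a.

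**Figure D4:**
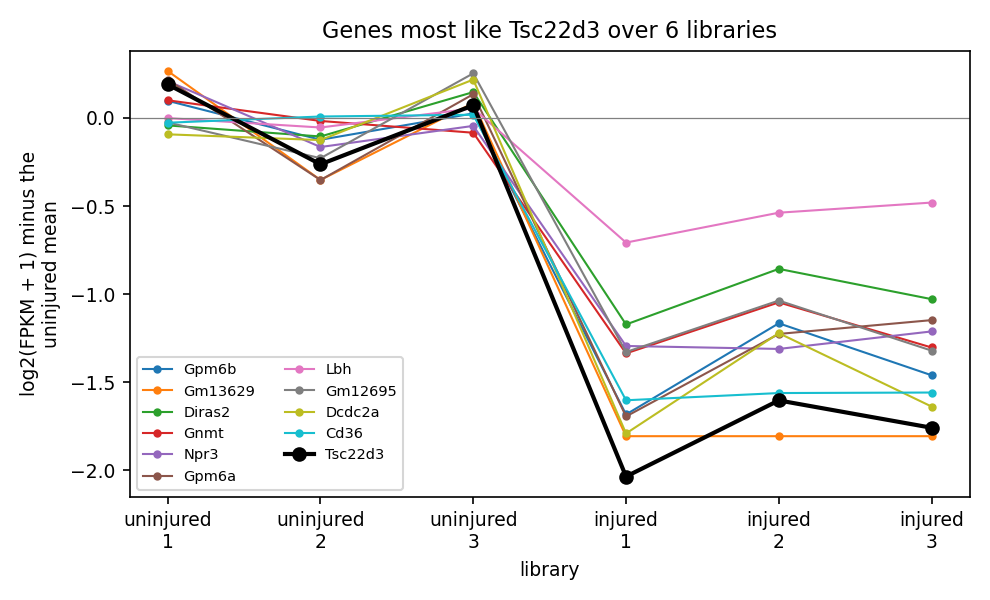
log2(FPKM + 1) minus the gene's uninjured mean in each of 6 libraries (x axis) for Tsc22d3 (black) and the 10 genes most like it by r or by distance. Lines only join the points of 1 gene, and Tsc22d3 reaches -2.04, -1.60 and -1.76 in the injured group.

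Sex of the pooled animals is not given in the labels, and it bears on a gene of the X chromosome. Xist, the RNA that silences 1 X chromosome in female cells, stood at 27.4, 33.8 and 27.0 FPKM in the uninjured group and at 0.0645, 0.346 and 0.561 in the injured group. It was the 1 gene that limma called lower (difference -4.53, limma adjusted p = 0.000223). Of 4 genes of the Y chromosome, 3 were higher in every injured library and Kdm5d overlapped. Eif2s3y, a translation factor gene, stood at 18.8, 2.73 and 2.55 FPKM and then at 23.0, 29.3 and 21.1. Ddx3y stood at 3.14 ± 3.06 and 9.40 ± 1.96 FPKM, Uty at 1.92 ± 1.66 and 10.2 ± 3.29, and Kdm5d at 1.54 ± 1.55 and 4.06 ± 1.04. Injury and sex therefore cannot be told apart in the comparison of the groups.

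Measurements on the same point were as follows. Uninjured replicate 1, which held both Xist and raised Y-linked genes, had the highest Tsc22d3 value, 51.9 FPKM. Without it the difference was -1.70. The other 230 X-linked genes tested had a median difference of 0.17, beside 0.16 for 7069 autosomal genes. All injured libraries were below the uninjured ones for 5.65% of the X-linked and 6.65% of the autosomal genes. They were above for 15.7% of the X-linked genes, beside 12% of all genes tested. The 6 tested X-linked genes nearest to Tsc22d3 on the chromosome (Prps1, Mid2, Psmd10, Atg4a, Morc4 and Col4a5) had differences from -0.42 for Col4a5 to 0.77 for Morc4, and the groups overlapped in all 6.

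**Figure D5:**
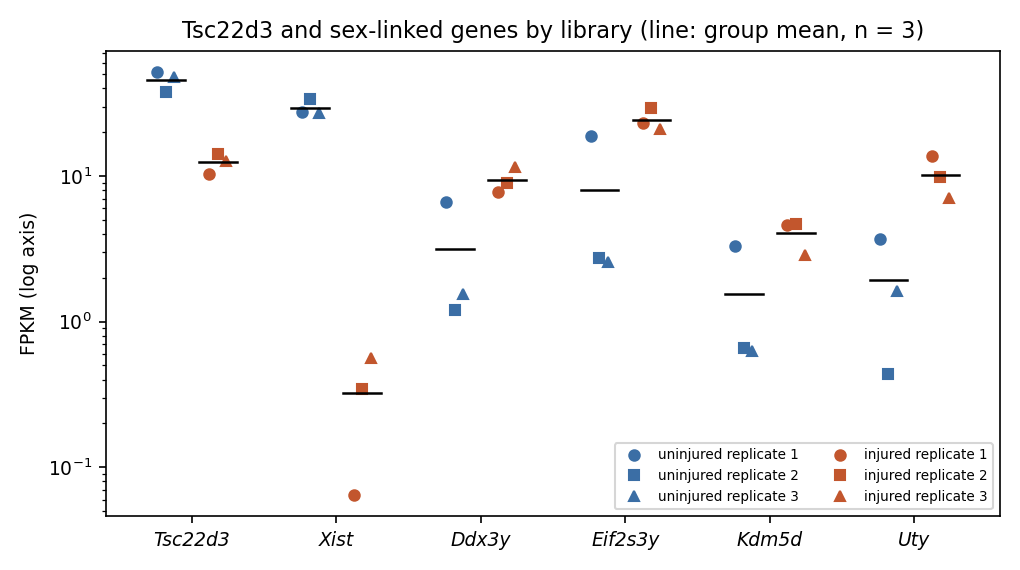
FPKM of Tsc22d3, Xist and 4 Y-linked genes on a log axis, 1 symbol per library and a line at each group mean, n = 3. Uninjured replicate 1 (blue circles) lies with the uninjured libraries for Tsc22d3 and Xist and nearer the injured ones for Eif2s3y at 18.8.

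The cell type label was checked on its markers. Of 10 horizontal basal cell genes, 7 had an entry, with Trp63, the transcription factor that holds these cells dormant, at 187, 194 and 157 FPKM in the uninjured group and at 112, 99.5 and 140 in injured libraries. The desmosome-associated Perp stood at 141, 869 and 166 FPKM and then at 252, 112 and 234. The adhesion genes Itga6 and Itgb4 had differences of 0.79 and 0.34 and Icam1 0.32, all with overlap, while Col17a1 was at -0.62. The median of the 7 was -0.02. Krt5, Sox2 and Krt14 alone were not analysed here. Relative to Trp63 in the same library, Tsc22d3 was at 0.19 to 0.30 in the uninjured group and at 0.09 to 0.14 in injured libraries. This ratio holds the chosen Tsc22d3 row too, so its separation is no separate evidence.

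Genes of other cells were present in the sorted pools, and some moved with Tsc22d3. Of 7 mature olfactory neuron markers, 5 had an entry and their summed level ran from 415 to 723 FPKM in uninjured and from 119 to 324 in injured libraries. All 5 had a negative difference, and 3 of them (60%, beside 6.75% of genes tested) were lower in every injured library. Stoml3, a neuronal scaffold protein, stood at 416 ± 129 and 124 ± 38.5 FPKM. Gng13, another of the 5, stood at 60.8, 139 and 126 FPKM and then at 20.7, 129 and 14.9. Its groups overlapped through injured replicate 2. Of 6 stromal markers 3 had an entry, summing to 126 to 220 FPKM and then 32.8 to 101, a sum carried by the matrix proteoglycan Dcn at 141 ± 23.5 and 35.1 ± 24.5. The collagen genes Col1a1 and Col1a2 had differences of 0.33 and 0.39, with overlap, and the median of the 3 was 0.33. Of 7 gland and mucus markers 2 had an entry, summing to 3036 to 4991 FPKM and then 1189 to 2314, nearly all of it the secreted protein Plunc. Without injured replicate 2, limma called Stoml3, Gng13 and Dcn lower (adjusted p = 0.0302, 0.0256 and 0.0097). In the same fit it called the sustentacular cell marker Krt18 higher (difference 1.59, limma adjusted p = 0.0346). The part of other cells in the lower Tsc22d3 level was not tested.

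Leukocytes carry much Tsc22d3 in general. Of 14 leukocyte markers 8 had an entry, summing to 91.3 to 211 FPKM in uninjured and 72.9 to 150 in injured libraries, with overlap. Of the 8, 4 had a positive and 4 a negative difference, with a median of -0.15. Cd74 and Laptm5, 2 of the 8 (25%, beside 6.75% of genes tested), were lower in every injured library. None was higher in every injured library, beside 12% of genes tested. Laptm5, chosen after its values were seen, stood at 3.65 ± 0.516 and 1.98 ± 0.834 FPKM. Cd74, the invariant chain of antigen presentation, stood at 102 ± 52.2 and 45.0 ± 8.42 FPKM, without overlap. The neutrophil proteins S100a8 and S100a9 had higher means in the injured group, at 14.6 ± 7.13 and 25.2 ± 15.1 FPKM and at 11.6 ± 5.13 and 23.3 ± 16.5, with overlap. Ptprc, which defines leukocytes and like Cd52 was chosen after its values were seen, overlapped between the groups. It stood at 1.06, 0.80 and 3.52 FPKM and then at 17.9, 0.343 and 1.16. Cd52 stood at 1.14, 2.63 and 4.37 FPKM and then at 0.001, 1.83 and 1.86, also with overlap. Summed sustentacular cell markers (6 of 8) ran from 355 to 409 FPKM and from 258 to 690. Krt18, at 390, 119 and 558 in injured libraries, carried much of the latter. Of the 6, 5 had a negative difference, and the median was -0.34. All injured libraries were below the uninjured ones for 2 (33.3%, beside 6.75% of genes tested), Hes1 and Cyp1a2. Cyp1a2, chosen after its values were seen, stood at 50.9 ± 13.5 and 12.2 ± 9.74 FPKM. Ciliated cell markers (3 of 5) summed to 23.4 to 42.8 FPKM and then 13.9 to 23.0. All 3 had a negative difference, with a median of -0.73, though each overlapped between the groups. Markers of globose basal cells and immature neurons (5 of 6) summed to 13.9 to 26.9 FPKM and then 9.91 to 179. Gap43 stood at 5.06, 13.1 and 12.0 FPKM and then at 2.44, 113 and 2.76. Gng8 stood at 2.89, 7.40 and 3.35 FPKM and then at 7.89, 43.3 and 2.48. For both, injured replicate 2 was the highest library. The red cell gene Alas2 (1 of 6) overlapped between the groups, and endothelial and glial markers were not analysed here.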

How the data were processed

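RNA of TdTomato-sorted cells was measured in 3 uninjured and 3 injured libraries, grouped by their titles. The authors deposited 1 table of values per gene, read here as FPKM because Cuffdiff is named in the submitters' processing notes and the gene column carries its heading. FastQC, TopHat and the build mm9 are named there too. Versions, annotation, scaling between libraries and filters are not given in the sources used here. Of 8078 entries 131 join several symbols and were not read as any single gene. No 2 libraries were identical.

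The test was limma (3.58.1, under R 4.3.3), run on the 7987 genes whose mean reached 1 FPKM, after log2(FPKM + 1), with trend and robust variances, no covariate and Benjamini-Hochberg adjustment at 0.05. The fit was tested on simulated data with equal spread in both groups and no outlying library. The measured libraries differ on both points, so that test does not cover them. Tsc22d3 was chosen from its values and got no test. The members, lists and naming rule were chosen with earlier results of these data known. Named were all TSC22 family, steroid handling and sex-linked genes, the receptors, the listed genes that separated most or were most abundant, and the genes most like Tsc22d3. A gene that this rule names is not reported here. Genes were placed on chromosomes by symbol (91.5% of those tested matched) and promoter windows taken from RefSeq, both of build GRCm38.p6. The fit was repeated with the replicate number as a block, without each library in turn, with pseudocounts of 0.1 and 0.5, with a filter at 5 FPKM or none, with quantile normalization, upper-quartile scaling, plain limma variances (neither trend nor robust), and without Mir703 after rescaling. Library weights and counts of separated genes were added after seeing the data. Figures used Python 3.11.15 and matplotlib 3.10.9.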

Additional observations from a re-analysis of the deposited data

How the results depend on the processing

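Over 16 alternatives the difference of Tsc22d3 lay between -1.99 (quantile normalization) and -1.68 (without injured replicate 1), on the same side in each. Counts of genes called moved. Leaving out 1 library gave 0 to 278 genes higher and 1 to 92 lower, the highest counts without injured replicate 2. The replicate block gave 134 higher and 87 lower. Deviations of same-numbered libraries correlated at -0.09, 0.07 and -0.08 across genes, which does not settle whether the replicate numbers pair the libraries. Library weights (0.26 for injured replicate 2) gave 85 higher and 49 lower, and limma without trend and robust steps gave 3 and 3. Genes called lower numbered 2 with a pseudocount of 0.1, 3 with upper-quartile scaling and 4 with quantile normalization. The cause was not tested.

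Among the 27 glucocorticoid-induced genes, the replicate block and library weights each called 1 higher. Leaving out 1 library gave a median from -0.15 to 0.29, 0 to 1 called higher, 0 to 1 called lower and 2 to 8 above in every injured library. The count of 8, without injured replicate 2, stood beside 29.4% of all genes tested. Upper-quartile scaling and quantile normalization each left 1 gene above, beside 7.2% and 7.6% of genes tested. The same 2 settings gave 7 and 6 genes below, beside 11.4% and 10.8%. Leaving out 1 library gave 6 to 8 genes below, beside 8.44% to 14.5% of genes tested. Read depth is unknown, so counting error could not be set beside any value.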

Other observations

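Among the genes of the glucocorticoid, FoxO and clock lists, Txnip had the profile most like that of Tsc22d3, with r = 0.96 over 6 libraries and 0.55 for deviations from the group means. Per2 followed at 0.92 and 0.61 and Nr3c2 at 0.89 and 0.64. The clock output factor Tef, chosen after its values were seen like the X-linked genes below, had r = 0.84 over the 6 libraries and 0.94 for the deviations, with 20.8, 13.7 and 17.8 FPKM in the uninjured group and 6.99, 15.1 and 10.1 in the injured group. At the other end stood the cochaperone Stip1 at -0.88, and the induced genes Lpin1 and Anxa1 and the receptor cofactor Smarca4, each at -0.82. These values describe 6 libraries in 2 groups and were not tested.

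On the X chromosome, apart from Xist, 0 of the other 230 genes tested had a more negative difference than Tsc22d3. The nearest were Tktl1, a transketolase-like gene listed at the lowest value in injured replicates 1 and 3, at -1.66, and Map3k15 at -1.51, whose groups overlapped. Gpm6b, the gene most like Tsc22d3, is also X-linked and stood at -1.44, and the matrix proteoglycan Bgn at -1.41.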
